A study of Arabidopsis thaliana with 8 samples.

Results

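The CPK family of Arabidopsis thaliana comprises the calcium-dependent protein kinases CPK1 to CPK34, and these 34 genes were taken by gene identifier from the tables of the series, with no use of their measured values. Of the 34 genes, 33 were among the 24279 genes listed in at least 1 library, and 29 passed the filter on low counts, against 20262 of all genes. CPK20 was listed in none of the libraries. The genes are ordered here by the published subgroups of the family, which hold 10 members in subgroup I, 13 in subgroup II, 8 in subgroup III and 3 in subgroup IV.

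RNA was sequenced from roots of seedlings aged 6 d. The seedlings, about 500, had grown in an acidic nutrient solution and were then kept for 6 h in solution of the same pH with 10 or 0 µM AlCl3. The groups were cml24-2 with Al, cml24-2 without Al, wild-type Col with Al and wild-type Col without Al, with 2 libraries each. cml24-2 is a mutant line of CML24, which encodes a calmodulin-like calcium sensor; the labels give neither the kind of allele nor more than this 1 line, and the whole root was sampled. Separate cultures behind the 2 libraries of a group are not stated, and all p-values therefore rest on the spread among these libraries alone.

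A CPK joins a kinase domain and a calmodulin-like calcium-binding domain in a single polypeptide, so that calcium binding by its EF hands can release the kinase from its own inhibitory segment. Family members act in abscisic acid and drought signalling, in immunity through the NADPH oxidase RBOHD and WRKY factors, in nitrate signalling through NLP factors, and in the control of ion channels and transporters. Aluminium ions at low pH stop root growth and are known to alter calcium in root cells, and the comparisons ask how transcript levels of the family stood after Al in each genotype and between the genotypes.

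The library totals were 11743433 to 12188917 expected counts, at which 3 counts correspond to 0.246 to 0.256 CPM, counts scaled to library size. CML24 had 146 and 106 FPKM in cml24-2 with Al, 207 and 129 FPKM in cml24-2 without Al, 48.5 and 43.0 FPKM in wild type with Al, and 49.5 and 114 FPKM in wild type without Al, so the mutant label could not be checked by a low transcript level. FPKM, fragments scaled by gene length and library size, is the level per length used for all values here unless counts are named. All 8 root marker genes chosen for the tissue check were detected, and their summed level was 554 and 580 FPKM in cml24-2 with Al, 1088 and 1196 FPKM in cml24-2 without Al, 496 and 602 FPKM in wild type with Al, and 1323 and 1610 FPKM in wild type without Al. All 8 were called lower with Al in each genotype, against 23.3% of all tested genes in cml24-2 and 25.9% in wild type. The 8 shoot photosynthesis markers summed to 68.7 and 72.3 FPKM in cml24-2 with Al, 114 and 143 FPKM in cml24-2 without Al, 28.5 and 10.6 FPKM in wild type with Al, and 45.0 and 87.7 FPKM in wild type without Al. With Al, 4 of these 8 were called lower in each genotype, and all 8 had negative fitted log2 changes in each. None of the root or shoot markers was at 0 in a group mean, and their part in the CPK values below was not tested. In such bulk roots, fewer cells of a type and less RNA per cell cannot be told apart. The 2 wild-type libraries without Al were further apart than the other pairs.

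CPK3 and CPK5 stood highest of the family in every group. Of the listed members, 23 were above 3 FPKM in every library, and the other 10 stayed at or under 3.27 FPKM. CPK3, a kinase known from guard cell ion channel control and salt stress, had 99.9 and 110 FPKM in cml24-2 with Al, 120 and 117 FPKM in cml24-2 without Al, 96.7 and 98.2 FPKM in wild type with Al, and 131 in both wild-type libraries without Al. It held rank 1 of the family without Al in both genotypes and rank 2 with Al, where CPK5 held rank 1. CPK3 and CPK5 together with the next 3 genes made up 42.4% of the summed family level in cml24-2 with Al, 46.8% in cml24-2 without Al, 45.2% in wild type with Al and 45.2% in wild type without Al. The next ranks were filled by CPK28, CPK9 and CPK6 in cml24-2 with Al, by CPK32, CPK1 and CPK28 in cml24-2 without Al, by CPK11, CPK9 and CPK8 in wild type with Al, and by CPK9, CPK8 and CPK1 in wild type without Al. Several neighbours in this order lay within their spread: CPK8, at 41.8 ± 4.39 FPKM (SD, n = 2) in wild type without Al, could not be set apart from CPK1 at 41.3 ± 5.37 FPKM, CPK6 at 41.2 ± 0.0141 FPKM or CPK9 at 43.2 ± 2.21 FPKM.

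**Figure D1:**
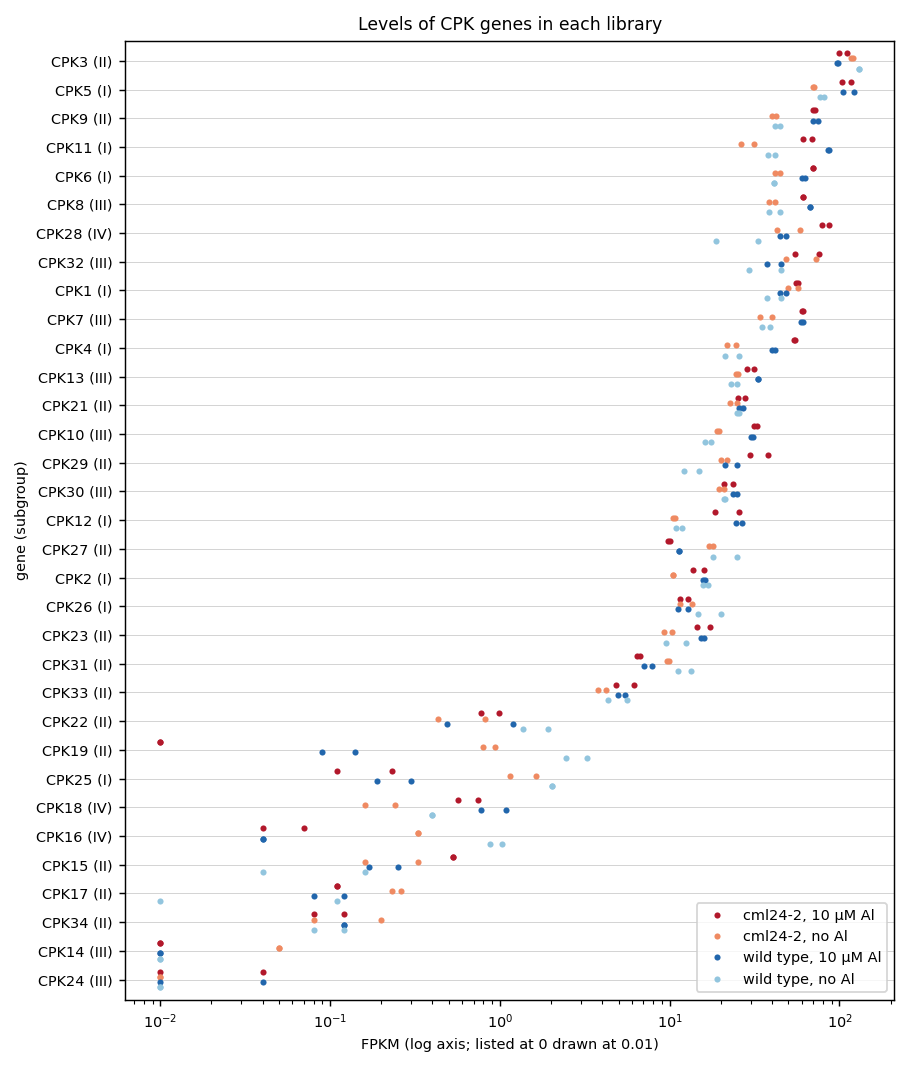
Level in FPKM (log axis) of each listed CPK gene in each of the 8 libraries, with the subgroup in brackets, sorted by mean level, and each point a library coloured by group; values listed at 0 are drawn at 0.01. The levels span CPK3 at up to 131 FPKM down to genes with no counts in some libraries, and for CPK19, CPK25 and CPK16 the points with Al lie left of those without Al.

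Among the low members, several are known from pollen. CPK14 had 0 and 0 counts in cml24-2 with Al, 1 and 1 count in cml24-2 without Al, and 0 in all 4 wild-type libraries. CPK17, a kinase of pollen tube growth, had 3 and 3 counts in cml24-2 with Al, 6 and 7 in cml24-2 without Al, 2 and 3 in wild type with Al, and 3 and 0 in wild type without Al. CPK34, its closest relative by coding sequence (85.4% identical bases), had 3 and 2 counts in cml24-2 with Al, 1.97 and 5 in cml24-2 without Al, 3 and 3 in wild type with Al, and 3 and 2 in wild type without Al. These counts lay at or close to a floor of 3 counts; the widest gap, 13 counts in cml24-2 against 3 in wild type without Al for CPK17, is a 4.49-fold ratio with a 95% counting interval of 1.23 to 24.6. CPK24, also a pollen tube kinase, had 1 and 0 counts in cml24-2 with Al, none in cml24-2 without Al, 1 and 0 in wild type with Al, and none in wild type without Al. With CPK20, these are the 5 members that were not tested.

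Summed over the 33 listed genes, the family level was 1040 and 1031 FPKM in cml24-2 with Al against 794 and 717 FPKM in cml24-2 without Al, and 949 and 985 FPKM in wild type with Al against 727 and 762 FPKM in wild type without Al. In each genotype both libraries with Al lay above both without. The subgroups contributed unequally. Subgroup I, which holds the abscisic acid and immune kinases CPK4, CPK5, CPK6 and CPK11, summed to 405 ± 9.91 FPKM in cml24-2 with Al against 254 ± 11.8 FPKM without (SD, n = 2), and to 403 ± 15.3 FPKM in wild type with Al against 272 ± 7.26 FPKM without. Subgroup III summed to 271 ± 16.3 FPKM in cml24-2 with Al against 202 ± 23.03 FPKM without, and to 257 ± 5.15 FPKM in wild type with Al against 178 ± 1.75 FPKM without. Subgroup II, in which the high CPK3 stood lower with Al, differed less: 276 ± 5.66 FPKM in cml24-2 with Al against 248 ± 8.35 FPKM without, and 260 ± 2.70 FPKM in wild type with Al against 267 ± 5.35 FPKM without. Subgroup IV, carried almost wholly by CPK28, summed to 83.6 ± 5.36 FPKM in cml24-2 with Al, 51.3 ± 11.3 FPKM in cml24-2 without Al, 47.5 ± 2.65 FPKM in wild type with Al and 27.3 ± 10.4 FPKM in wild type without Al. With 2 libraries a group an exact permutation test of these sums could not reach a p under 0.05, and none was run.

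**Figure D2:**
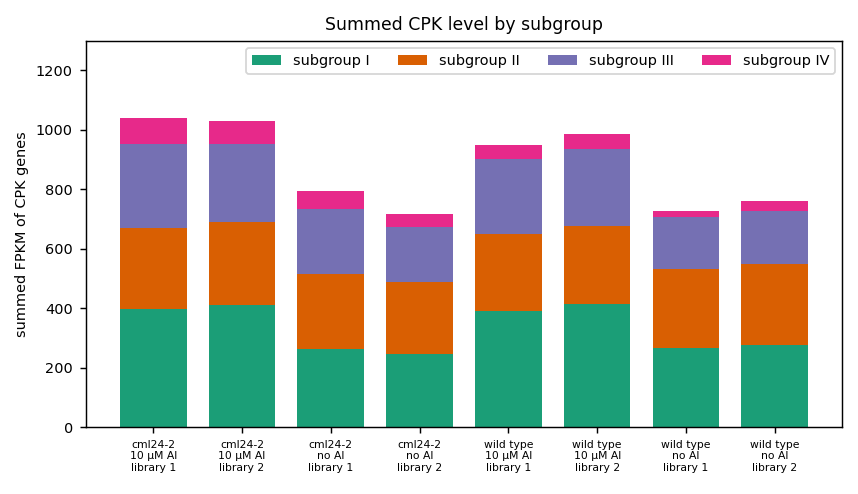
Summed FPKM of the CPK genes in each library as bars stacked by subgroup. The 4 libraries with Al reach 949 to 1040 FPKM and the 4 without reach 717 to 794 FPKM, with the subgroup II segment of similar height in all.

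Most tested CPK genes differed with Al, and more of them were higher than lower. In cml24-2, 19 of 29 CPK genes (65.5%) passed an edgeR Benjamini-Hochberg adjusted p under 0.05 over all genes, 14 higher and 5 lower with Al, where 44.6% of all tested genes were called, 21.3% higher and 23.3% lower. In wild type, 21 of 29 (72.4%) were called, 14 higher and 7 lower, where 51.0% of all tested genes were called, 25.1% higher and 25.9% lower. The higher calls were thus 48.3% of the tested CPK genes in each genotype. The median log2 fold change of the 29 genes was 0.56 in cml24-2 and 0.50 in wild type, against medians over all genes of -0.005 in cml24-2 and 0.0 in wild type. The genes called higher in both genotypes were the run CPK4 to CPK13 together with CPK18, CPK23 and CPK29, 13 in all. The 5 called lower in both were CPK16, CPK19, CPK25, CPK27 and CPK31. The share of all tested genes called in the same direction in both genotypes was not counted, so these serve as lists of names only. The 2 Al comparisons share no library, but they were fitted together with a single estimate of spread.

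**Figure D3:**
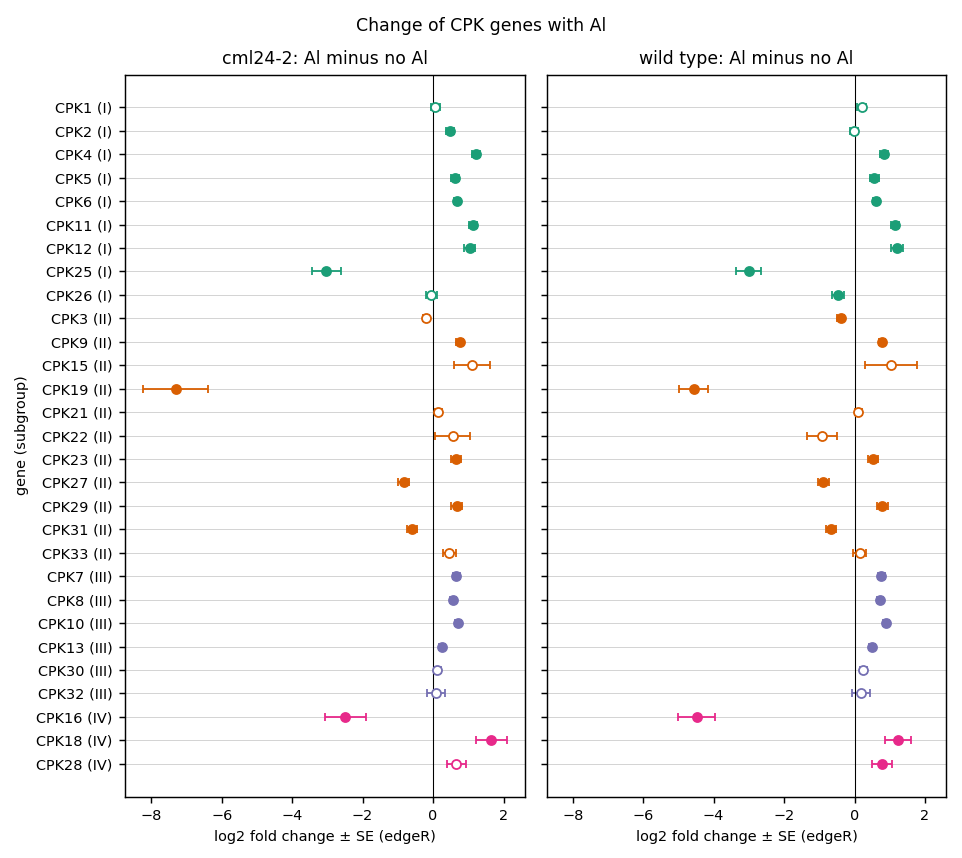
Log2 fold change with Al ± SE from the edgeR fit for the 29 tested CPK genes, in cml24-2 (left) and wild type (right), coloured by subgroup; filled points had an adjusted p under 0.05 and open points did not. Most filled points lie between 0.25 and 1.65 on the right of 0, and CPK16, CPK19 and CPK25 lie far to the left; the CPK19 value in cml24-2 is a fitted value for a gene with 0 counts with Al and not a bound.

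Within subgroup I, 6 of 9 tested genes rose (66.7%) and 1 fell (11.1%) in cml24-2. In wild type 5 rose (55.6%) and 2 fell (22.2%). Of all tested genes, 21.3% were higher and 23.3% lower in cml24-2, and 25.1% and 25.9% in wild type. The close relatives CPK4 (AT4G09570) and CPK11 (AT1G35670), which act in abscisic acid signalling and phosphorylate ABF factors, had the largest rises of the subgroup in cml24-2. CPK4 had 54.3 and 54.6 FPKM in cml24-2 with Al against 24.6 and 21.9 FPKM without, and 40.0 and 41.9 FPKM in wild type with Al against 21.2 and 25.5 FPKM without. Libraries with Al were higher in both genotypes with no overlap. The log2 fold change was 1.21 (SE 0.12, edgeR adjusted p = 6.9e-05) in cml24-2 and 0.84 (SE 0.12, adjusted p = 3.7e-04) in wild type. CPK11 had 60.6 and 68.5 FPKM in cml24-2 with Al against 31.3 and 26.2 FPKM without, and 87.0 and 85.8 FPKM in wild type with Al against 41.6 and 38.1 FPKM without. Its log2 fold changes with Al were nearly equal, 1.14 (SE 0.11, adjusted p = 6.4e-05) in cml24-2 and 1.15 (SE 0.11, adjusted p = 3.8e-05) in wild type, but every cml24-2 library lay under its wild-type counterparts. The coding sequences of CPK4 and CPK11 were 86.9% identical, and both had fractional expected counts in 8 of 8 libraries, so that part of their reads was divided between them by the authors' counting.

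CPK12, a negative regulator in abscisic acid responses, had 25.7 and 18.4 FPKM in cml24-2 with Al against 10.4 and 10.7 FPKM without, and 26.7 and 24.7 FPKM in wild type with Al against 10.9 and 11.9 FPKM without. It rose by 1.04 (SE 0.16, edgeR adjusted p = 7.5e-04) in cml24-2 and by 1.20 (SE 0.16, adjusted p = 2.2e-04) in wild type on the log2 scale. CPK5, which phosphorylates RBOHD in immune signalling, had 103 and 118 FPKM in cml24-2 with Al against 71.0 and 69.8 FPKM without, and 105 and 122 FPKM in wild type with Al against 76.5 and 81.5 FPKM without. These are rises of 0.62 (SE 0.12) in cml24-2 and 0.56 (SE 0.12) in wild type on the log2 scale. CPK6, its closest relative (84.6% identical coding bases), had 69.7 and 70.2 FPKM in cml24-2 with Al against 44.9 and 41.8 FPKM without, and 60.2 and 62.7 FPKM in wild type with Al against 41.2 in both libraries without. CPK6 rose by 0.67 (SE 0.09) in cml24-2 and by 0.61 (SE 0.09) in wild type. Thus the 5 genes CPK4, CPK5, CPK6, CPK11 and CPK12 rose in both genotypes, with libraries with Al above those without in every case. Their calls rest on the same libraries, so this order is no added support.

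CPK2 (AT3G10660) was called with Al in cml24-2 and not in wild type. It had 15.9 and 13.6 FPKM in cml24-2 with Al against 10.4 and 10.5 FPKM without, and 15.7 and 16.1 FPKM in wild type with Al against 15.7 and 16.9 FPKM without. The cml24-2 libraries without Al were the low ones, and the other 6 libraries lay between 13.6 and 16.9 FPKM. The log2 fold change was 0.48 (SE 0.11, edgeR adjusted p = 0.0066) in cml24-2, a call lost without cml24-2 Al library 1 (adjusted p = 0.059), and -0.01 (adjusted p = 0.97) in wild type. The difference between the genotypes' responses was 0.48 (SE 0.15), with an unadjusted edgeR p of 0.011 and an adjusted p of 0.24. CPK1, the closest relative of CPK2 and a kinase of defence and senescence, lay between 37.5 and 57.0 FPKM over the 8 libraries and was called in neither genotype. CPK26 lay between 11.3 and 19.99 FPKM and was called lower in wild type alone (log2 fold change -0.47, SE 0.16, adjusted p = 0.033), a call lost in 6 of 16 alternatives, such as DESeq2 (adjusted p = 0.062) or without wild-type Al library 1 (0.077), wild-type Al library 2 (0.18) or wild-type control library 1 (0.17).

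CPK25 (AT2G35890), a divergent member whose calcium-binding domain is degenerate, was the only gene of subgroup I called lower in both genotypes. It had 0.11 and 0.23 FPKM in cml24-2 with Al against 1.15 and 1.64 FPKM without, and 0.30 and 0.19 FPKM in wild type with Al against 2.03 and 2.04 FPKM without. The underlying counts were 3 and 6 against 31 and 44 in cml24-2, and 8 and 5 against 55 and 56 in wild type. All 4 libraries with Al were low in each case. CPK25 fell by 3.03 (SE 0.41, edgeR adjusted p = 3.8e-04) in cml24-2 and by 3.01 (SE 0.36, adjusted p = 1.4e-04) in wild type on the log2 scale. The CPK coding sequence closest to it, that of CPK20, shared 57.9% of bases.

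CPK19 (AT1G61950) of subgroup II, a kinase for which little is known, went lower still. It had 0 counts in both cml24-2 libraries with Al against 18 and 21 without, and 2 and 3 in wild type with Al against 56 and 74 without. In FPKM this was 0 and 0 against 0.80 and 0.93 in cml24-2, and 0.09 and 0.14 against 2.46 and 3.27 in wild type. The groups were far apart in both genotypes. In cml24-2 the level with Al was at least 13.02-fold lower, by a floor of 3 counts over both libraries (edgeR adjusted p = 4.2e-04), and in wild type CPK19 fell by 4.57 (SE 0.42, adjusted p = 5.9e-05) on the log2 scale. The wild-type change was -1.79 with limma on log2(FPKM + 1). Floors and counting intervals cover counting error only.

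The 250 bases before the annotated starts of CPK19 and CPK25, the steepest falls of subgroups I and II, are shown as the only 2 of the 34 CPK windows with ACGTG, the core of the G-box and of abscisic acid response elements; the genes shown were chosen after their values had been seen. The sequences are from the RefSeq annotation of assembly TAIR10.1. That of CPK19 is chr1:22899139-22899388 on the plus strand, and that of CPK25 is chr2:15069360-15069609, printed 5′ to 3′ on the minus strand. Capitals mark 3 motifs or their reverse complements, namely ACGTG, the W-box core bound by WRKY factors, which reads TTGAC (reverse complement GTCAA), and the dehydration-responsive element core, which reads CCGAC; a search for ACGCG, the core bound by calmodulin-binding CAMTA factors, found none in these windows.
CPK19: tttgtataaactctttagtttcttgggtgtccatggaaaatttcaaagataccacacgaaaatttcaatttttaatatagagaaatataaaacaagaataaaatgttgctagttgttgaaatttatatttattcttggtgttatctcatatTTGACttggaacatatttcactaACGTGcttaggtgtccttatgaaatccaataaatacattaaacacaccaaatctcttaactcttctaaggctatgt
CPK25: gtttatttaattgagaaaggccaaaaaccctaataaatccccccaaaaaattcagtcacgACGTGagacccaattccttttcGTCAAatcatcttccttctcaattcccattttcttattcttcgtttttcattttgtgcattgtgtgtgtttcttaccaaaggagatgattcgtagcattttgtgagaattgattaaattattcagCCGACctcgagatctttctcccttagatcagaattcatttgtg
ACGTG on either strand was thus in 5.9% of the CPK windows and in 22.9% of the 27443 windows of all genes. TTGAC lay in the windows of 17 of 34 CPK genes (50.0%) and of 44.9% of all. ACGCG was in 5.9% of the CPK windows, those of CPK29 and CPK33, and in 6.9% of all, and CCGAC in 14.7% of the CPK windows and 11.97% of all. A match describes letters in a window and not a bound site. The windows of 8 other CPK genes overlap annotated exons of neighbouring or own transcripts.

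In subgroup II, 3 of 11 tested genes rose and 3 fell in cml24-2 (27.3% each). In wild type 3 rose (27.3%) and 4 fell (36.4%). Of all tested genes, 21.3% were higher and 23.3% lower in cml24-2, and 25.1% and 25.9% in wild type. CPK9 (AT3G20410), known from guard cells, had 70.3 and 71.5 FPKM in cml24-2 with Al against 42.5 and 40.0 FPKM without, and 74.4 and 69.8 FPKM in wild type with Al against 44.8 and 41.7 FPKM without. It rose by 0.75 (SE 0.09, edgeR adjusted p = 1.6e-04) in cml24-2 and 0.77 (SE 0.09, adjusted p = 9.0e-05) in wild type. CPK29, a kinase that phosphorylates PIN auxin carriers, had 37.8 and 29.9 FPKM in cml24-2 with Al against 21.9 and 20.04 FPKM without, and 21.2 and 24.8 FPKM in wild type with Al against 12.1 and 14.8 FPKM without. Libraries with Al were higher within each genotype, and wild type with Al reached the level of cml24-2 without. The log2 rise was 0.67 (SE 0.15, adjusted p = 0.0066) in cml24-2, lost without cml24-2 Al library 1 (adjusted p = 0.060), and 0.79 (SE 0.16, adjusted p = 0.0026) in wild type. CPK3, the most abundant gene of the subgroup, was called lower in wild type (log2 fold change -0.40, SE 0.09, adjusted p = 0.0056) and not in cml24-2 (-0.20, adjusted p = 0.10), and the difference between these responses was not called (adjusted p = 0.59). CPK15 (0.04 to 0.53 FPKM), CPK22 (0.43 to 1.93 FPKM), CPK21 (22.7 to 27.9 FPKM) and CPK33 (3.78 to 6.13 FPKM) were called in neither genotype.

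The 5 neighbours on chromosome 4 that belong to subgroup II did not move as a block. CPK31 (chr4:2381348-2384121), CPK27 (chr4:2385038-2388105), CPK22 (chr4:2390307-2392989), CPK21 (chr4:2393653-2397804) and CPK23 (chr4:2402897-2408737) lie in this order, all on the minus strand of TAIR10.1. CPK31, which acts on the arsenite channel NIP1;1, had 6.41 and 6.68 FPKM in cml24-2 with Al against 9.96 and 9.59 FPKM without, and 7.10 and 7.86 FPKM in wild type with Al against 11.2 and 13.3 FPKM without. CPK27, known from salt tolerance, had 9.83 and 10.1 FPKM in cml24-2 with Al against 18.04 and 16.95 FPKM without, and 11.3 in both libraries of wild type with Al against 17.96 and 24.8 FPKM without. Both were lower with Al in every library. CPK31 fell by 0.60 (SE 0.14, edgeR adjusted p = 0.0071) in cml24-2 and by 0.68 (SE 0.14, adjusted p = 0.0027) in wild type, and CPK27 by 0.83 (SE 0.16, adjusted p = 0.0028) and 0.89 (SE 0.16, adjusted p = 0.0014). At the other end, CPK23, a guard cell kinase that activates the anion channel SLAC1, had 14.6 and 17.3 FPKM in cml24-2 with Al against 10.3 and 9.28 FPKM without, and 15.4 and 15.8 FPKM in wild type with Al against 12.5 and 9.57 FPKM without. It rose by 0.65 (SE 0.14, adjusted p = 0.0045) in cml24-2 and by 0.53 (SE 0.14, adjusted p = 0.0096) in wild type, the call in wild type ending without wild-type Al library 2 (adjusted p = 0.061). CPK21, its relative in SLAC1 control, changed by 0.15 (SE 0.09, adjusted p = 0.23) and 0.11 (SE 0.09, adjusted p = 0.35). CPK27 and CPK31 share 89.2% of coding bases and had fractional counts in 7 of 8 libraries, and CPK21 and CPK23 share 85.9% and had them in 6, so reads within each of these pairs were partly divided between the genes.

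**Figure D4:**
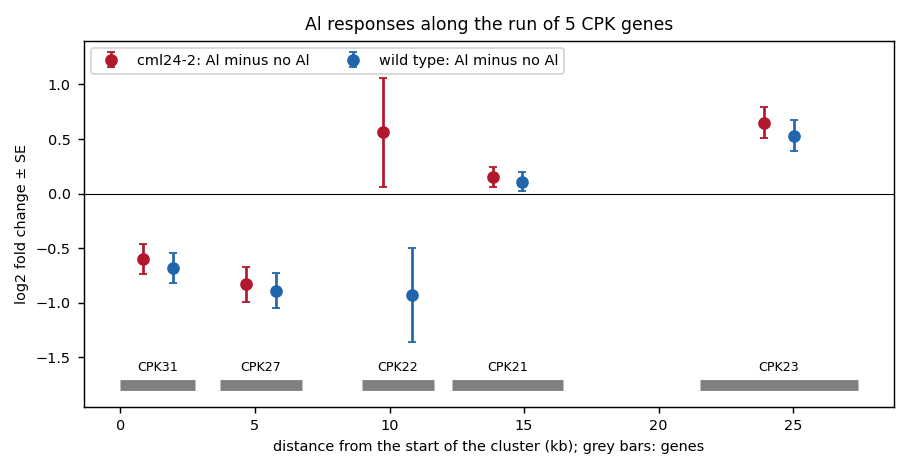
Log2 fold change with Al ± SE (edgeR) of CPK31, CPK27, CPK22, CPK21 and CPK23, in cml24-2 and in wild type, against the distance in kb from the start of CPK31; grey bars are the genes, and points are set slightly apart for legibility. CPK31 and CPK27 lie under 0 and CPK23 above 0 in both genotypes, CPK21 lies near 0, and the low-count CPK22 lies at 0.56 in cml24-2 and -0.93 in wild type, neither called.

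Subgroup III, whose members CPK10, CPK30 and CPK32 act in nitrate signalling, held no gene that fell. In each genotype 4 of 6 tested genes rose (66.7%), where 21.3% of all tested genes were higher in cml24-2 and 25.1% in wild type. CPK10 (AT1G18890) had 32.8 and 31.3 FPKM in cml24-2 with Al against 19.6 and 18.9 FPKM without, and 30.96 and 29.9 FPKM in wild type with Al against 17.5 and 16.1 FPKM without. It rose by 0.71 (SE 0.09, edgeR adjusted p = 2.0e-04) in cml24-2 and by 0.89 (SE 0.09, adjusted p = 4.1e-05) in wild type. CPK7, a regulator of root water uptake, had 61.3 and 60.4 FPKM in cml24-2 with Al against 40.1 and 34.2 FPKM without, and 61.2 and 59.5 FPKM in wild type with Al against 38.7 and 35.1 FPKM without. CPK8, its closest relative (86.4% identical coding bases) and a kinase of drought and peroxide responses, had 60.8 and 61.1 FPKM in cml24-2 with Al against 41.9 and 38.6 FPKM without, and 66.8 and 67.4 FPKM in wild type with Al against 44.9 and 38.6 FPKM without. With Al these 2 relatives were level with each other in cml24-2, and no library with Al overlapped one without. On the log2 scale CPK7 rose by 0.66 (SE 0.10) in cml24-2 and 0.76 (SE 0.10) in wild type, and CPK8 by 0.57 (SE 0.09) and 0.72 (SE 0.09). CPK13, a kinase of guard cell potassium channels, ranged over 23.1 to 33.3 FPKM. It rose by 0.50 (adjusted p = 0.0014) in wild type and by 0.25 (adjusted p = 0.044) in cml24-2, where the call ended in 11 of 16 alternatives, among them DESeq2 (adjusted p = 0.15). CPK30 lay at 19.6 to 25.02 FPKM and CPK32 at 29.5 to 75.5 FPKM, and neither was called.

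Subgroup IV held 2 genes of opposite direction and 1 abundant gene. CPK16 (AT2G17890) had 2 and 1 counts in cml24-2 with Al against 9 and 9 without, and 1 and 1 in wild type with Al against 24 and 28 without, which is 0.07 and 0.04 against 0.33 and 0.33 FPKM, and 0.04 and 0.04 against 0.87 and 1.03 FPKM. By counts it was 6.01-fold lower (95% counting interval 1.75 to 31.9) with Al in cml24-2 and 24.8-fold lower (6.54 to 210) in wild type. The edgeR adjusted p was 0.0075 in cml24-2 and 1.2e-04 in wild type; DESeq2 (adjusted p = 0.074) and leaving out cml24-2 Al library 2 (0.065) ended the call in cml24-2. CPK18 (AT4G36070), its closest relative with 74.2% identical coding bases, had 0.74 and 0.57 FPKM in cml24-2 with Al against 0.24 and 0.16 FPKM without, and 0.77 and 1.08 FPKM in wild type with Al against 0.40 in both libraries without. It rose by 1.65 (SE 0.44, adjusted p = 0.014) in cml24-2 and by 1.23 (SE 0.36, adjusted p = 0.019) in wild type, on 4 to 26 counts a library. DESeq2 called neither rise (adjusted p = 0.091 in cml24-2 and 0.17 in wild type), and calls also ended without cml24-2 Al library 1 (0.086) or cml24-2 control library 2 (0.095), and without wild-type Al library 2 (0.14), wild-type control library 1 (0.079) or wild-type control library 2 (0.066). CPK28 (AT5G66210), which limits immune signalling through BIK1, had 86.6 and 79.2 FPKM in cml24-2 with Al against 58.7 and 42.8 FPKM without, and 44.8 and 48.2 FPKM in wild type with Al against 18.7 and 33.2 FPKM without. The log2 fold change was 0.66 (SE 0.27, adjusted p = 0.079) in cml24-2 and 0.78 (SE 0.28, adjusted p = 0.044) in wild type. The wild-type call was lost in 9 of 16 alternatives, with 0.32 (adjusted p = 0.15) without wild-type control library 1, and in cml24-2 a call was gained in 3, with only the cml24-2 libraries fitted (adjusted p = 0.0075) and without wild-type control library 1 (0.002) or 2 (0.0031).

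Close relatives did not always share a call. CPK18 rose where CPK16 fell, CPK10 rose where CPK30 (84.3% identical coding bases) was not called, CPK9 rose where CPK33 (81.7%) was not, and CPK23 rose where CPK21 was not. CPK4 and CPK11, CPK5 and CPK6, and CPK7 and CPK8 rose together, and CPK27 and CPK31 fell together. The differences within these pairs were not tested.

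Between the genotypes without Al, 6 of 29 CPK genes (20.7%) were called, where 12.9% of all tested genes were called, 7.41% higher and 5.5% lower in cml24-2. CPK28 and CPK29 were higher in cml24-2, and CPK2, CPK11, CPK16 and CPK19 were lower. CPK28 was at 50.8 ± 11.2 FPKM in cml24-2 and 25.95 ± 10.3 FPKM in wild type (SD, n = 2 each), a log2 difference of 1.04 (SE 0.28, edgeR adjusted p = 0.043). CPK29 was at 20.96 ± 1.31 FPKM in cml24-2 and 13.5 ± 1.88 FPKM in wild type, a difference of 0.66 (SE 0.16, adjusted p = 0.028). Of the lower genes, CPK2 was at 10.5 ± 0.0141 FPKM in cml24-2 and 16.3 ± 0.842 FPKM in wild type (-0.60, SE 0.11, adjusted p = 0.0095), and CPK11 at 28.8 ± 3.61 FPKM in cml24-2 and 39.9 ± 2.51 FPKM in wild type (-0.43, SE 0.11, adjusted p = 0.038). The libraries of the 2 genotypes did not overlap for any of these 4 genes, though those of CPK28 spread widely. The calls rest on the same libraries, so this lack of overlap is no added support. The low-level genes CPK19 and CPK16 had 39 and 18 counts over both cml24-2 libraries against 130 and 52 over both wild-type libraries, differences of -1.68 (SE 0.29, adjusted p = 0.011) and -1.47 (SE 0.34, adjusted p = 0.025).

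None of these 6 calls held in all of the alternatives run, 16 for most genes. The call of CPK28 was lost in 13 of them, that of CPK11 in 10, CPK16 in 7, CPK29 in 6, CPK2 in 2 and CPK19 in 2; the direction of each was the same in every alternative run. CPK28 was called in 3: with no low-count filter, with a strict one and without wild-type control library 2. Leaving out 1 library of the comparison put the adjusted p at 0.061 and 0.052 for CPK2 without cml24-2 control library 1 or 2, and at 0.083 and 0.056 for CPK19. Without wild-type control library 1 the CPK28 difference was 0.56 (adjusted p = 0.063). CPK32, an abundant gene at 60.4 ± 17.4 FPKM in cml24-2 and 37.3 ± 10.97 FPKM in wild type, was not called (0.74, SE 0.26, adjusted p = 0.097), except without wild-type control library 2 (1.1, adjusted p = 0.019). CPK1 at 53.3 ± 5.18 FPKM in cml24-2 and 41.3 ± 5.37 FPKM in wild type was likewise not called with all libraries (0.41, SE 0.13, adjusted p = 0.064, and 0.57 with adjusted p = 0.013 without that library). The shoot photosynthesis markers were also higher in cml24-2 than in wild type. Their median log2 difference was 0.90 without Al, with none of 8 called, and 1.76 with Al, with 4 of 8 called higher. Of all tested genes, 7.41% were called higher in cml24-2 without Al and 4.63% with Al. The part of these markers in the CPK differences was not tested.

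**Figure D5:**
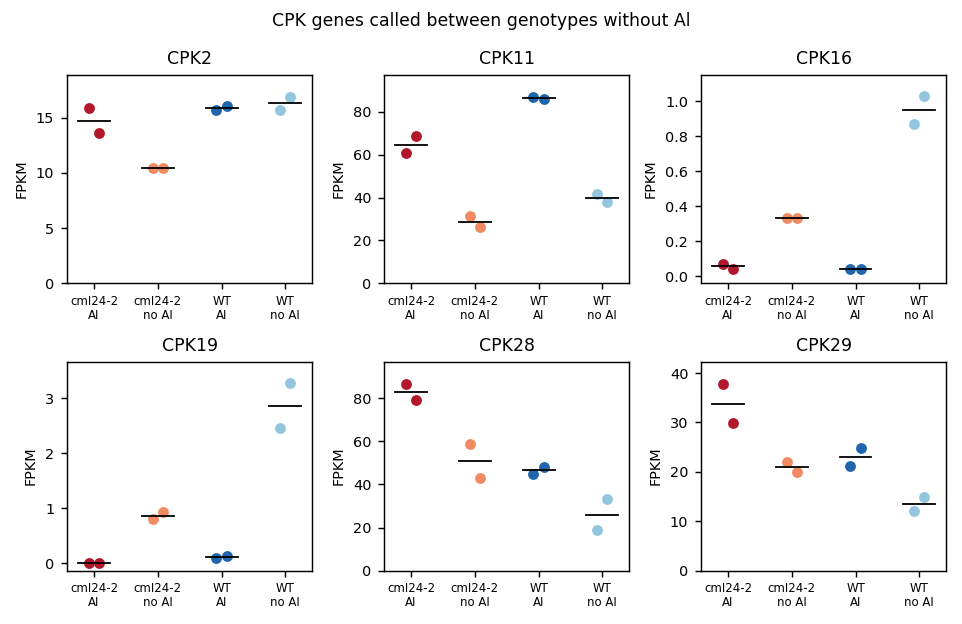
FPKM of the 6 CPK genes called between the genotypes without Al, in each library of the 4 groups; points are libraries and the line is the group mean. CPK28 and CPK29 are higher and CPK2, CPK11, CPK16 and CPK19 lower in cml24-2 than in wild type without Al, while with Al CPK2 and CPK16 libraries of the 2 genotypes overlap.

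With Al, CPK11 was the 1 CPK gene of 29 called between the genotypes (3.45%), where 8.02% of all tested genes were called, 4.63% higher and 3.39% lower in cml24-2. It was at 64.5 ± 5.60 FPKM in cml24-2 and 86.4 ± 0.842 FPKM in wild type (log2 difference -0.43, SE 0.11, edgeR adjusted p = 0.044), and the call ended in 7 alternatives, 4 of them leaving out 1 of the libraries compared (adjusted p = 0.11 to 0.23) and the others the replicate block (0.059) and limma (0.094 and 0.12). With limma on log2(FPKM + 0.1) CPK19 was called instead (-1.09, adjusted p = 0.031), on 0 counts in both cml24-2 libraries and 2 and 3 in wild type. Its relative CPK4 stood the other way round, at 54.4 ± 0.191 FPKM in cml24-2 and 41.0 ± 1.37 FPKM in wild type, with a difference of 0.40 (SE 0.12, adjusted p = 0.069) that did not pass. CPK28 at 82.9 ± 5.22 FPKM in cml24-2 and 46.5 ± 2.43 FPKM in wild type (0.92, SE 0.28, adjusted p = 0.076) and CPK29 at 33.8 ± 5.54 FPKM in cml24-2 and 23.01 ± 2.60 FPKM in wild type (0.54, SE 0.15, adjusted p = 0.065) did not pass either. CPK4, CPK28 and CPK29 were called when the 4 libraries with Al were fitted alone (edgeR adjusted p = 0.0065 for CPK4, 5.2e-05 for CPK28 and 0.011 for CPK29). The same 3 were called without wild-type control library 1 or 2. With the 4 libraries fitted alone CPK32 was called too (0.65, edgeR adjusted p = 0.0099). It was at 65.1 ± 14.8 FPKM in cml24-2 and 41.3 ± 5.86 FPKM in wild type with Al.

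No CPK gene was called for a difference between the genotypes' responses to Al by edgeR (0 of 29). Of all tested genes, 0.301% were called, 0.202% in the negative direction. An unadjusted edgeR p under 0.05 was found for 1 of 29, CPK2, against 2513 of all 20262 tested genes. No CPK gene was called in any alternative that could be run, DESeq2 and limma included. CPK22, a low-level gene at 0.99 and 0.77 FPKM in cml24-2 with Al against 0.43 and 0.82 FPKM without, and 0.49 and 1.20 FPKM in wild type with Al against 1.37 and 1.93 FPKM without, had fitted changes of opposite sign and a difference of 1.48 (SE 0.66, adjusted p = 0.40). A p that misses the threshold does not show that the genotypes responded alike.

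Of the genes around the family, the 8 CDPK-related kinases resemble CPKs but have degenerate EF hands. With Al, 6 of these 8 rose and 1 fell in each genotype (87.5% called). Of all tested genes, 44.6% were called with Al in cml24-2 and 51.0% in wild type. CRK7 had the largest rise, 1.09 in cml24-2 and 1.0 in wild type on the log2 scale, and CRK8 was the one that fell (-0.40 and -0.67). Without cml24-2 Al library 1, 3 were called in cml24-2. None was called between the genotypes by edgeR, with or without Al, and no alternative called any. An unadjusted edgeR p under 0.05 was found for 1 without Al and 0 with Al. Of all 20262 tested genes, 5946 had one without Al and 4868 with Al. Of the 4 PEP carboxylase kinases and related genes, which lack the calcium-binding domain, PEPKR2 rose in cml24-2 (0.44) and PPCK1 (0.57) and PEPKR2 (0.45) in wild type. The call of PEPKR2 ended in 7 of 16 alternatives in cml24-2, among them each fit lacking a cml24-2 library (adjusted p = 0.063 to 0.16), and in 5 of 16 in wild type; without wild-type Al library 1 both wild-type calls ended (0.055 for PPCK1 and 0.20 for PEPKR2). PPCK1 and PPCK2 were lower in cml24-2 than in wild type, with log2 differences of -0.52 and -0.87 without Al and of -0.85 and -1.02 with Al. That is 50.0% of the 4 genes in each comparison, against 12.9% of all tested genes without Al and 8.02% with Al. Without Al the calls of PPCK1 and PPCK2 ended in 10 and 6 of 16 alternatives, and both ended without cml24-2 control library 1; with Al both ended without cml24-2 Al library 2 and without wild-type Al library 1 or 2.

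Among 33 genes whose proteins are reported as CPK substrates, 31 were tested. With Al, 11 rose and 2 fell in cml24-2 (41.9% called) and 10 rose and 5 fell in wild type (48.4%). These totals are near those of all genes, 44.6% and 51.0%. By direction, 35.5% rose and 6.45% fell in cml24-2, against 21.3% and 23.3% of all genes. In wild type 32.3% rose and 16.1% fell, against 25.1% and 25.9%. The senescence factor NAC092 rose by 3.59 in cml24-2 and 4.32 in wild type, and the channel gene NIP1;1 fell by 4.76 and 3.74 on the log2 scale. WRKY8, called higher in both, had 49 and 47 counts in cml24-2 with Al against 1 and 8 without, and 54 and 44 in wild type with Al against 1 and 0 without. At so few counts without Al its fitted log2 change ranged from 1.65 to 5.42 in cml24-2 and from 1.96 to 8.63 in wild type over the alternatives. Between the genotypes without Al, 8 of 31 were higher and 2 lower in cml24-2 (32.3% called), led by WRKY48 at 2.90. With Al, 9 were higher and 4 lower (41.9%), among them WRKY48 (2.11), the ethylene synthesis gene ACS2 (1.54), NIP1;1 (-1.18) and the NADPH oxidase gene RBOHD (1.04). These shares compare with 12.9% and 8.02% of all tested genes. With Al the RBOHD call ended under DESeq2 (adjusted p = 0.067), the replicate block (0.059) and limma with pseudocounts of 1 (0.067) and 0.1 (0.1). The WRKY48 call with Al ended under limma on log2(FPKM + 0.1) (adjusted p = 0.082). The calls with Al of RBOHD, WRKY48, ACS2 and NIP1;1 also ended in each fit lacking 1 of the 4 libraries compared. In these fits the log2 difference was 0.87 to 1.19 for RBOHD and 2.02 to 2.19 for WRKY48. It was 1.29 to 1.84 for ACS2 and -1.27 to -1.09 for NIP1;1. That of RBOHD was also not called without cml24-2 control library 1 or 2. The count without Al was 5 of 31 without cml24-2 control library 1, and that with Al was 8 under DESeq2 and 2, 0, 0 and 1 without cml24-2 Al library 1, cml24-2 Al library 2, wild-type Al library 1 and wild-type Al library 2. None of the 31 was called for a difference in response by edgeR, where 0.301% of all tested genes were. An unadjusted edgeR p under 0.05 was found for 11 of the 31, against 2513 of all 20262 tested genes. DESeq2 and limma called none, and calls appeared only without wild-type control library 1 or 2.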

How the data were processed

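Total RNA of roots was sequenced on the BGISEQ-500 platform, per the labels' protocols. For each gene the deposited files give the authors' expected count (an estimated, unscaled number of reads) and FPKM, made with RSEM, as the submitters' processing notes record; the version of RSEM, the genome build and the aligner: not given in the sources used here. After rounding, expected counts entered edgeR 4.0.16 under R 4.3.3, with TMM factors of 0.984 to 1.03, genes kept by filterByExpr, and a quasi-likelihood model of the 4 group means on all 8 libraries, which leaves 4 residual degrees of freedom. The common biological coefficient of variation was 11%. Calls used Benjamini-Hochberg adjustment over 20262 genes with a threshold of 0.05. Positive log2 fold changes mean higher with Al or higher in cml24-2. The script was checked on simulated counts.

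Library totals of 11743433 to 12188917 expected counts set the precision of low genes. Whole numbers (within 0.005) made up 89.1 to 89.5% of a library's expected counts, and the rest hold reads shared between genes. In none of the 4 groups did the 2 libraries agree within sampling noise (chi-square per degree of freedom 3.97 to 17.01). Libraries of different groups were not compared in this way.

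Coordinates and upstream windows of 250 bases come from the RefSeq annotation of TAIR10.1, since the listed lengths equalled the annotated transcript length for 100% of 13725 genes with 1 transcript. Coding identity was computed with Biopython 1.88 on each gene's longest coding transcript, as matches over the longer sequence, a choice of transcript made after values had been seen. The members were set by gene identifier, with no use of their values. The choice of this family, of the gene lists and of the tests was made with earlier results of these data known.

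Values in every library are given for CPK genes with an adjusted p under 0.05 and a log2 change of at least 0.58 in an Al comparison, for those called between genotypes and for those failing the filter; the rest are given by range. Of each list, up to 4 called genes with large changes are named. Alternatives were DESeq2 1.42.0, RLE size factors, no filter, a strict filter (1 CPM in 4 libraries), only the 4 libraries compared, a replicate block, limma 3.58.1 with pseudocounts of 1 and 0.1 on log2 FPKM (genes at 1 FPKM in 2 or more libraries), and fits lacking each library in turn.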

Additional observations from a re-analysis of the deposited data

How the results depend on the processing

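The Al results held most firmly: 14 of the 19 CPK calls in cml24-2 and 17 of the 21 in wild type were made in all alternatives run. Without 1 library the number of CPK genes called lay between 15 and 21 in cml24-2 and between 18 and 21 in wild type. With limma on log2(FPKM + 1), whose pseudocount damps low levels, the fitted log2 changes of CPK19 were -0.90 in cml24-2 and -1.79 in wild type and those of CPK25 -1.03 and -1.29, all still called. Between the genotypes without Al, edgeR called 2616 genes and 6 CPK genes; fitting only the 4 libraries compared gave 888 and 2, limma on log2(FPKM + 1) 2 CPK genes, limma on log2(FPKM + 0.1) 1439 and 2, and leaving out a library 807 to 3060 and 0 to 8. With Al the counts were 1625 and 1, against 3340 and 5 with only the libraries compared, 861 over all genes with limma on log2(FPKM + 0.1), 0 CPK genes with limma on log2(FPKM + 1) or with the replicate block, 1 with limma on log2(FPKM + 0.1), which was CPK19 (-1.09, adjusted p = 0.031) and not CPK11, and 148 to 2788 and 0 to 4 without a library. For the difference in response, 61 genes were called by edgeR, 199 by DESeq2, 29 by limma on log2(FPKM + 0.1) and 12 to 482 without a library, with 0 CPK genes throughout. The cause of these movements was not tested. The replicate numbers do not pair the libraries (correlations of deviations -0.168 to 0.144); with the replicate block the CPK counts were 19 and 21 with Al in cml24-2 and wild type, 5 and 0 between genotypes without and with Al, and 0 for the difference. Of 1267 values of CPK genes and CML24 under the alternatives, 1138 had the same direction and side of the threshold, 95 lost and 24 gained a call, and 10 changed sign, none of them called. For Al in cml24-2 these were CPK1 (-0.04 without cml24-2 control library 2; range without 1 library -0.04 to 0.16), CPK26 (0.04 without cml24-2 Al library 1 and 0.08 without cml24-2 control library 2) and CPK32 (-0.17 and -0.18 in the same settings; range -0.18 to 0.41). For Al in wild type they were CPK2 (0.03 without wild-type Al library 1, 0.07 without wild-type control library 2; range -0.10 to 0.07), CPK32 (-0.14 without wild-type control library 1; range -0.14 to 0.55) and CPK33 (-0.06 in the same setting; range -0.06 to 0.34). With Al between genotypes it was CPK16 (-0.02 without cml24-2 Al library 1; range -0.02 to 0.90). Values between genotypes were followed for the CPK genes with values in the text, a restriction set after many uncalled near-zero values were seen to change sign. Counts under 3 in a library (CPK14, CPK15, CPK16, CPK17, CPK19, CPK24, CPK34) limit what depth can show.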
